A study of Mus musculus with 12 samples.

Results

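The 10 genes described here encode the transcription factors of the Myc network: Myc, Mycn, Mycl, Max, Mxd1, Mxd3, Mxd4, Mxi1, Mnt and Mlx. They were chosen by name, as the Myc paralogs, their shared partner Max and the partners that compete for Max, out of the 24060 rows of each deposited expression table. All 10 had a row in every table. Total RNA depleted of ribosomal RNA was sequenced from 12 rhabdoid tumors that arose in P0-CreC;Smarcb1flox/flox mice, 4 labelled retro-orbital, 3 cheek, 3 meninges, 1 vestibular N and 1 trigeminal N. All 12 carry the floxed Smarcb1 alleles and the same Cre transgene, whose P0 promoter is active in early neural crest cells and in the Schwann cell lineage, so neither normal tissue nor a tumor with intact Smarcb1 stands beside them. The labels give neither the age nor the sex of the mice. The first part of the tumor identifier is shared by cheek 1 and meninges 1, by cheek 2 and cheek 3, and by retro-orbital 3 and trigeminal N 1. This leaves 9 distinct starts, and whether a shared start means a shared mouse is not stated in the labels. P-values below come from tests that treat these samples as independent, except where the identifier start is named. Whether tumors with a shared start are independent is not known.

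Myc proteins bind DNA only as dimers with Max, through a basic helix-loop-helix leucine zipper, and recognize the E-box. Myc is the broadly expressed paralog of dividing cells, Mycn is known from embryonic neural tissue and neuroblastoma, and Mycl from lung and epithelial tissue. The Mxd proteins, Mxi1 and Mnt also dimerize with Max, occupy E-boxes and recruit Sin3 and histone deacetylase complexes, which repress transcription. Mlx is the Max-like partner of Mnt, of some Mxd proteins and of the glucose-responsive factors Mlxip and Mlxipl. Smarcb1 is a subunit of the SWI/SNF chromatin remodeling complex, and its loss defines rhabdoid tumors. The SMARCB1 protein is known to bind MYC, which makes the level of each paralog a natural question in these tumors.

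The perfect E-box CACGTG was searched in the RefSeq promoter windows of build GRCm38.p6, from 250 bases before to 50 bases after each start site. The word reads the same on both strands. It occurred in 2349 of all 32851 windows (7.15%). Counted by gene, it occurred in 2187 of 27025 genes with a window (8.09%), in 4 of the 9 members that had a window (44.4%) and in 9 of 28 Myc-induced target genes with a window (32.1%). The sites of the 4 members are printed because these genes encode the proteins that bind the word, together with that of Wdr43, a ribosome biogenesis factor whose RNA level was among the 3 most like that of Myc. The capitals mark the E-box, and each line is read 5′ to 3′ on the strand of the gene.
Max, chr12:76962234-76962263, minus strand: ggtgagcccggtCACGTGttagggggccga
Mxd4, chr5:34187912-34187941, minus strand: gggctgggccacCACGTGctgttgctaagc
Mnt, chr11:74830789-74830818, plus strand: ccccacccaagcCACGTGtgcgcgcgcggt
Mlx, chr11:101087238-101087267, plus strand: ggtgggttggatCACGTGactgagcctcgc
Wdr43, chr17:71616220-71616249, plus strand: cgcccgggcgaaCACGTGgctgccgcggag
In Max the word began at position -3 from the start site, in Mlx at -40, in Mnt at -123 and in Mxd4 at -219. Mycn, Mycl, Mxd1, Mxd3 and Mxi1 had a window without the word, and no window of Myc was read. A match describes the letters of the window and not the binding of a protein.

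Expression is given in RPKM, reads scaled to transcript length and to the reads of the tumor, a unit per length that allows levels of different genes to be compared. The fragment totals behind the values ranged from 13206168 to 57128422 per tumor, and 12575 to 14528 genes per tumor reached 1 RPKM. The targeted gene Smarcb1 ranged from 1.70 RPKM in vestibular N 1 to 6.31 RPKM in meninges 3, with a mean of 4.21 ± 1.36 (SD, n = 12). Without normal tissue this range does not check the deletion. Markers of other cells were present in most tumors. The leukocyte list (8 of 8 genes measured) summed to between 161 and 555 RPKM in the retro-orbital, 120 and 263 in the cheek and 158 and 297 in the meninges tumors. The skeletal muscle list (6 of 6) summed to between 5.60 and 481 RPKM over the locations, the neuron list (5 of 5) to between 12.2 and 61.8, and the endothelial list (4 of 4) to between 18.9 and 81.3. The 4 red cell hemoglobin genes are listed at 0 in every tumor. In such bulk samples, fewer cells of a type and less RNA per cell cannot be told apart.

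**Figure D1:**
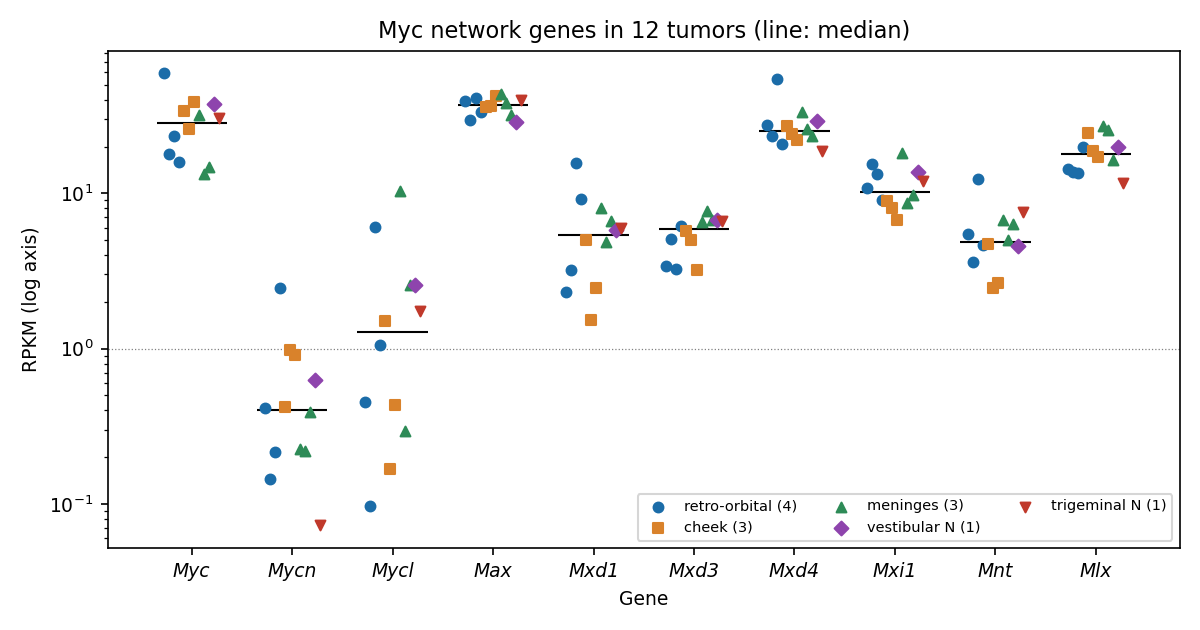
RPKM (log axis) of the 10 Myc network genes in the 12 tumors, with 1 point per tumor, a color and symbol per location, a line at the median and a dotted line at 1 RPKM. Max lies between 29.0 and 43.8 RPKM in every tumor, whereas Mycl spreads from 0.0973 to 10.4 and Mycn reaches 1 RPKM in 1 tumor.

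Myc was the highest of the 3 paralogs in all 12 tumors. In the retro-orbital tumors it measured 59.2, 17.9, 23.4 and 15.9 RPKM, in the cheek tumors 33.9, 26.0 and 38.5, and in the meninges tumors 31.9, 13.3 and 14.7. Vestibular N 1 had 37.6 and trigeminal N 1 30.6 RPKM. The highest level was that of retro-orbital 1 and the lowest that of meninges 2, a 4.45-fold range, and every location pair overlapped. Over the 12 tumors the mean was 28.6 ± 13.1 RPKM, which placed Myc between the 75.5 and the 95.5 percentile of all rows within a tumor. Myc lies on chromosome 15 (GRCm38 61985391 to 61990374, plus strand), next to the long noncoding gene Pvt1, which is known to be amplified together with it in tumors. Pvt1 had 5.57 ± 1.82 RPKM (n = 12) and an r of 0.83 with Myc on the log2(RPKM + 1) scale, from 3.79 RPKM in retro-orbital 4 to 9.21 in retro-orbital 1, the tumor with the highest Myc.

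Mycn was low in nearly all tumors. Retro-orbital 4 had 2.45 RPKM, the only value above 1, against 0.412, 0.144 and 0.216 in the other retro-orbital tumors. The cheek tumors had 0.421, 0.980 and 0.904 RPKM, the meninges tumors 0.224, 0.220 and 0.390, vestibular N 1 0.624 and trigeminal N 1 0.0728. The meninges tumors thus lay below all cheek tumors, and retro-orbital values lay on both sides. Few fragments stood behind these values. Trigeminal N 1 had 4 Mycn fragments (exact Poisson 95% interval 0.0198 to 0.186 RPKM) and retro-orbital 4 had 262 (2.16 to 2.76 RPKM). These intervals cover counting error only, and the values of the other 10 tumors lay between these 2. The intervals of meninges 3 (0.231 to 0.616 RPKM) and cheek 1 (0.286 to 0.598 RPKM) overlapped. The order of the meninges and cheek tumors was therefore not resolved. Mycn lies on chromosome 12 (12936093 to 12941914, minus strand), and its antisense neighbor Mycnos had no row.

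Mycl varied the most of the 10 members, over a 107-fold range. It reached 10.4 RPKM in meninges 1 and 6.09 in retro-orbital 3, with 1002 and 1217 fragments. The other retro-orbital tumors had 0.454, 0.0973 and 1.06 RPKM, the cheek tumors 1.5, 0.167 and 0.433, and the other meninges tumors 0.294 and 2.57. Vestibular N 1 had 2.57 and trigeminal N 1 1.74 RPKM. Each location with replicates held tumors on both sides of the median of 1.28 RPKM, and 7 of the 12 tumors reached 1 RPKM. On the log2(RPKM + 1) scale, the SD of Mycl over the tumors exceeded that of 88.2% of the 15043 genes that reached 1 RPKM in 3 or more tumors. Mycl lies on chromosome 4 (122995652 to 123002485, plus strand).

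Which paralog dominated was therefore the same in every tumor, while the second place changed. Myc made up between 75.0% (meninges 1) and 98.7% (retro-orbital 2) of the summed RPKM of the 3 paralogs, with a median of 94.5%. Mycl came second in 8 tumors and Mycn in the other 4, which were retro-orbital 2, retro-orbital 4, cheek 2 and cheek 3. In 4 tumors (retro-orbital 1, retro-orbital 2, cheek 3 and meninges 2) the counting intervals of Mycl and Mycn overlapped, so their order was not resolved there. The share of Mycl peaked at 24.5% in meninges 1 and that of Mycn at 12.6% in retro-orbital 4. The Myc to Mycn ratio ran from 6.52 in retro-orbital 4 to 421 in trigeminal N 1, and the Myc to Mycl ratio from 3.07 in meninges 1 to 184 in retro-orbital 2.

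**Figure D2:**
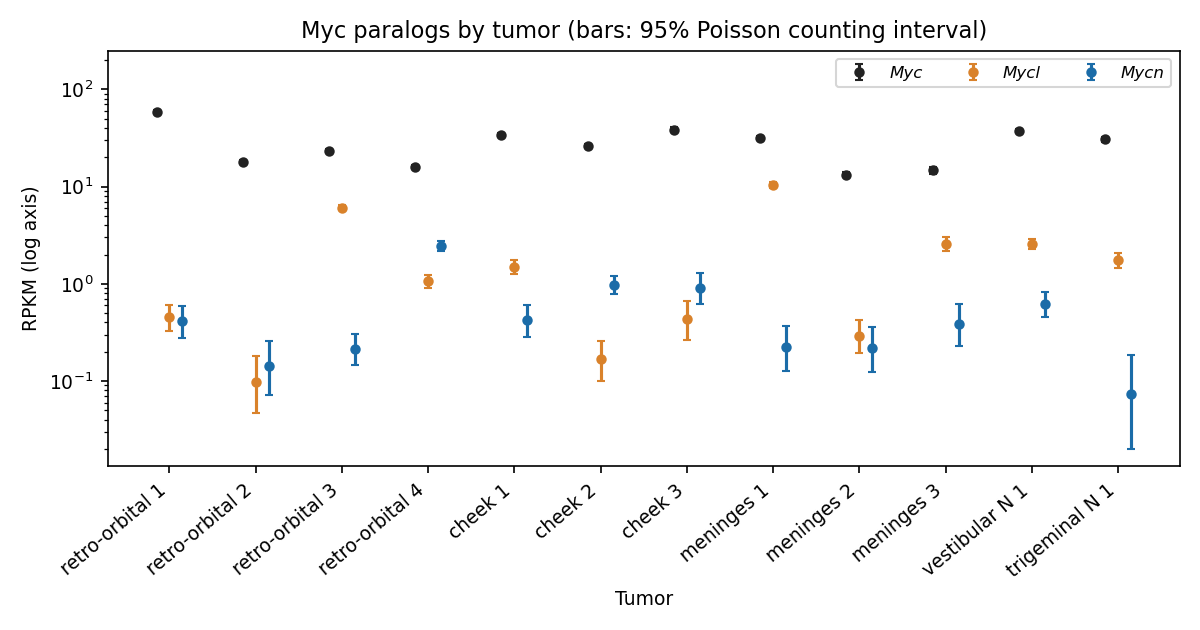
RPKM (log axis) of Myc, Mycl and Mycn in each tumor, with bars for the exact Poisson 95% counting interval. Myc stands highest in all 12 tumors, while the order of Mycl and Mycn changes from tumor to tumor, as in retro-orbital 4 (Mycn 2.45, Mycl 1.06) and meninges 1 (Mycl 10.4, Mycn 0.224).

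On the log2(RPKM + 0.1) scale, Myc exceeded Mycn by 5.66 ± 1.26 (SD, n = 12, a 50.6-fold difference) with the same sign in 12 of 12 tumors (exact two-sided sign-flip permutation test, p = 0.00049, the smallest that 12 tumors can give). Myc exceeded Mycl by 4.43 ± 1.83, or 21.6-fold, also in 12 of 12 tumors and with the same smallest exact p of 0.00049. Mycl exceeded Mycn by 1.23 ± 2.25 in 8 of 12 tumors (exact permutation p = 0.088), a difference smaller than its spread, and by 1.52 without cheek 2 (exact permutation p = 0.041). Kept to 1 value per identifier start (9 values), the Myc differences were 5.54 and 4.54, both with an exact permutation p of 0.0039. The log2 Myc to Mycn ratio was 5.48 ± 1.91 in the 4 retro-orbital, 5.30 ± 0.715 in the 3 cheek and 5.65 ± 0.883 in the 3 meninges tumors, and an exact permutation test over all 4200 labellings gave p = 0.97. Without retro-orbital 4 the largest difference between location means rose from 0.35 to 1.13 (exact permutation p = 0.21).

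Max, the obligate partner of the Myc proteins, was the most even member. The retro-orbital tumors had 39.4, 29.5, 40.8 and 33.1 RPKM, the cheek tumors 35.7, 36.3 and 42.0, and the meninges tumors 43.8, 37.9 and 32.1. Vestibular N 1 had 29.0 and trigeminal N 1 40.05 RPKM. No location stood apart, and the highest and lowest tumors differed by 1.51-fold around a mean of 36.7 ± 4.88 (n = 12). The SD of its log2(RPKM + 1) values was 0.19, and 3.04% of the 15043 genes had a lower one, against a median SD of 0.48. Max exceeded the summed paralogs in 9 of 12 tumors. The exceptions were retro-orbital 1, where the ratio of Max to the paralog sum was lowest at 0.656, vestibular N 1 (0.711) and cheek 1 (0.998). The highest ratio was 2.74 in meninges 2, the tumor with the lowest Myc. Max lies on chromosome 12 (76937269 to 76962201, minus strand).

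The repressor partners of Max were led by Mxd4 in every tumor. Mxd4 is a Mad family protein associated with cells leaving the cycle. It had 27.4, 23.3, 54.1 and 20.8 RPKM in the retro-orbital tumors, 27.2, 24.1 and 21.9 in the cheek tumors and 33.4, 26.0 and 23.4 in the meninges tumors. Vestibular N 1 had 29.2 and trigeminal N 1 18.7. Retro-orbital 3 stood above all other tumors, and the rest lay between 18.7 and 33.4 RPKM in all locations. Mxd4 made up 36.8% to 59.3% of the summed RPKM of Mxd1, Mxd3, Mxd4, Mxi1 and Mnt.

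Mxi1, a repressor mapped early as a candidate tumor suppressor, came second among the 5 repressors in 10 of 12 tumors, with a mean of 11.2 ± 3.41 RPKM. Its values were 10.8, 15.5, 13.4 and 9.08 in the retro-orbital tumors, 8.95, 8.05 and 6.77 in the cheek tumors and 18.2, 8.69 and 9.70 in the meninges tumors, with 13.8 in vestibular N 1 and 12.0 in trigeminal N 1. All cheek tumors lay below all retro-orbital tumors, by a small margin, and the meninges tumors overlapped both. The counting intervals of cheek 1 (8.49 to 9.42 RPKM) and retro-orbital 4 (8.69 to 9.47 RPKM) overlapped. The order of the cheek and retro-orbital tumors was therefore not resolved. The cheek minus retro-orbital difference had a limma adjusted p of 0.46. The share of all genes with such an order was not counted.

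Mxd1, the founding Mad protein, is known to rise as cells differentiate, in neutrophils among others. It ranged 10.3-fold, with 2.31, 3.20, 15.7 and 9.12 RPKM in the retro-orbital tumors, 5.03, 1.53 and 2.45 in the cheek tumors and 7.99, 4.82 and 6.68 in the meninges tumors. Vestibular N 1 had 5.77 and trigeminal N 1 5.96. Retro-orbital 3 was the highest and cheek 2 the lowest. The neutrophil genes S100a8 and S100a9 both had their highest value in retro-orbital 3, at 128 and 113 RPKM. S100a8 was at 66.1 RPKM in cheek 3 and 42.9 in retro-orbital 2, with Mxd1 at 2.45 and 3.20. In retro-orbital 4 it was at 2.66, with Mxd1 at 9.12. The leukocyte list as a whole had a median r of 0.063 with Mxd1, and 5 of its 7 genes were positive. Over all genes 60.6% were positive with Mxd1, with a median of 0.15. The part of such cells in the Mxd1 level was not tested.

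Mnt is the repressor found in most cells, cycling ones included. It measured 5.48, 3.60, 12.4 and 4.64 RPKM in the retro-orbital tumors, 4.71, 2.47 and 2.63 in the cheek tumors and 6.70, 5.02 and 6.38 in the meninges tumors, with 4.57 in vestibular N 1 and 7.55 in trigeminal N 1. All meninges tumors were above all cheek tumors, and retro-orbital 3 was again the highest. Mxd3, a Mad protein known from dividing S-phase cells, was at 3.21 to 7.70 RPKM (mean 5.5 ± 1.54, n = 12). The 3 meninges tumors had 6.52, 7.70 and 6.75, all above the retro-orbital values of 3.38, 5.08, 3.25 and 6.12 and the cheek values of 5.68, 4.98 and 3.21. No location difference of Mnt or Mxd3 passed the limma test given below. How many of all genes separate the locations in this way was not counted. For Mnt the counting intervals of meninges 2 (4.62 to 5.43 RPKM) and cheek 1 (4.34 to 5.10 RPKM) overlapped. For Mxd3 those of meninges 1 (5.71 to 7.41 RPKM) and retro-orbital 4 (5.48 to 6.82 RPKM) did. Neither order was therefore resolved. Exons of Mxd3 share bases with Prelid1 on the opposite strand, and those of Mxd4, Mxi1 and Mlx with Gm42846, Gm10197 and Psmc3ip. The strand setting of the counting is not given in the sources used here, so the reads of these pairs may not be separable.

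The 5 repressors together exceeded the summed paralogs in 10 of 12 tumors. Their ratio was lowest in retro-orbital 1 (0.822) and next in cheek 3 (0.927), and highest in meninges 2 (3.78), with a median of 1.64. Their sum was between 37.0 RPKM in cheek 3 and 98.9 in retro-orbital 3.

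Mlx had 14.4, 13.6, 13.5 and 19.99 RPKM in the retro-orbital tumors, 24.5, 18.8 and 17.1 in the cheek tumors and 27.0, 25.7 and 16.3 in the meninges tumors, with 19.7 in vestibular N 1 and 11.7 in trigeminal N 1. Of the retro-orbital tumors, retro-orbital 4 stood high, and the locations overlapped. Of the wider network, Mga, a giant repressor that binds Max, had 21.1 ± 4.99 RPKM, Zbtb17 (Miz-1, the partner through which Myc represses genes) 9.92 ± 2.16, Mlxip 6.10 ± 2.20 and Mlxipl 0.550 ± 0.515 (n = 12 each).

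In order of mean RPKM the members ran Max, Myc, Mxd4, Mlx, Mxi1, Mxd1, Mnt, Mxd3, Mycl and Mycn. The within-tumor log2(RPKM + 0.1) difference between neighbors was larger than its SD for 4 of the 9 steps: from Mxd4 to Mlx (0.56 ± 0.53, 12 of 12 tumors), Mlx to Mxi1 (0.72 ± 0.61, 10 of 12), Mxi1 to Mxd1 (1.13 ± 0.83, 10 of 12) and Mxd3 to Mycl (2.16 ± 1.78, 10 of 12). Max and Myc, Myc and Mxd4, Mxd1 and Mnt, Mnt and Mxd3, and Mycl and Mycn did not differ beyond their spread. The first of each pair was the higher in 10, 6, 6, 4 and 8 of 12 tumors. Setting a mean against its SD is not a test.

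No member passed the test of a difference between tumor locations. In limma on log2(RPKM + 1) over the 10 tumors of the 3 replicated locations, 9 of the 10 members passed the filter of 1 RPKM in 3 tumors, and Mycn did not. With Benjamini-Hochberg adjustment, 0 of the 9 were called by the F test at 0.05, where 6 of the 14745 genes tested were (0.0407%). At an unadjusted p under 0.05 the count was also 0 of 9, against 14.3% of all genes. The adjusted F p-values of the members ranged from 0.40 (Mlx) to 0.90 (Max), and in a fit without the filter Mycn had 0.73. In the cheek and retro-orbital comparison 0 of 9 were called (0.0271% of all genes), in the meninges and retro-orbital comparison 0 of 9 (0.0203%) and in the meninges and cheek comparison 0 of 9 (0.0475%). At an unadjusted p under 0.05 these counts were 0, 1 and 0 of 9, against 12%, 9.14% and 17% of all genes. The comparisons share tumors and are not independent.

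The 1 member was Mlx, 0.54 higher in meninges than in retro-orbital tumors (SE 0.23, limma adjusted p = 0.54), with means of 23.0 ± 5.85 (n = 3) and 15.4 ± 3.11 RPKM (n = 4). Mxd3 was 0.58 higher in the same comparison (SE 0.27, limma adjusted p = 0.55). Myc was 0.78 lower in meninges than in cheek tumors (SE 0.48, limma adjusted p = 0.43), with means of 19.99 ± 10.4 and 32.8 ± 6.31 RPKM (n = 3 each), and Mycl 1.22 higher (SE 0.86, limma adjusted p = 0.48). This Mycl difference was 0.42 without meninges 1, 1.99 without meninges 2 and, with the identifier start as a block, 2.03 (limma adjusted p = 0.0042). In this comparison the block fit called 2 of 9 members, and 4243 of all 14745 genes. Mnt was 0.75 higher in meninges than in cheek tumors (SE 0.39, limma adjusted p = 0.36). For Mycl a standard error of this size leaves a difference of the observed magnitude unresolved. With the identifier start as a block, the limma F test called Mycl (adjusted p = 0.014) and Mxi1 (adjusted p = 0.0081). These were 2 of 9 members, where 2802 of all 14745 genes were called. The block fit rested on 2 shared starts among these 10 tumors, with an estimated correlation of 0.93.

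**Figure D3:**
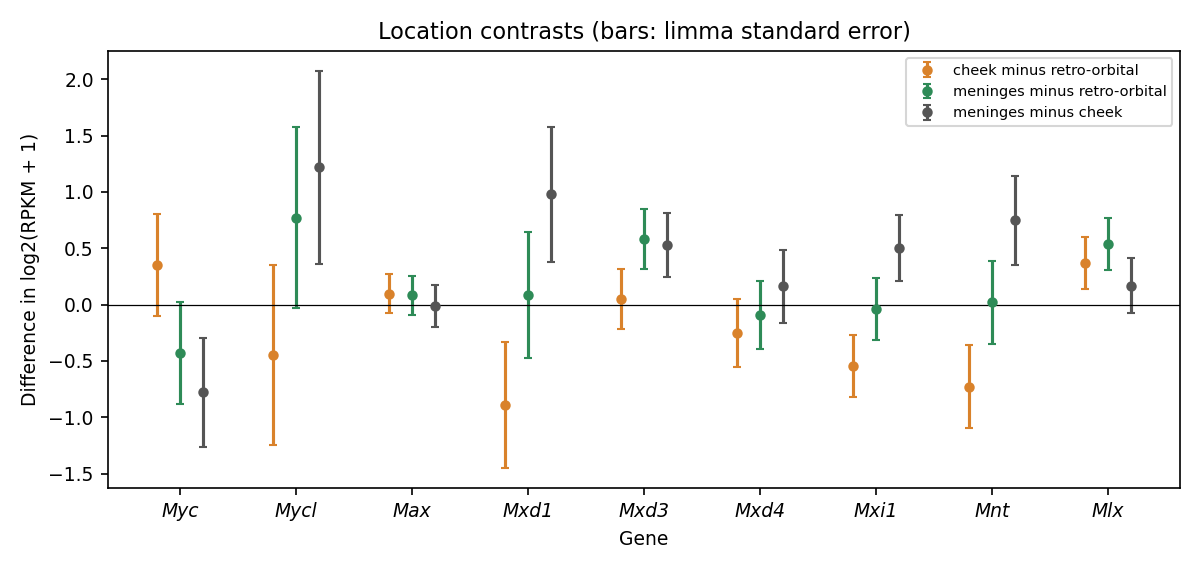
Differences between locations in log2(RPKM + 1) for the 9 members tested, as points with the limma standard error as bars, over 4 retro-orbital, 3 cheek and 3 meninges tumors. Points of Max lie within 0.10 of 0, those of Mycl carry the widest bars (SE 0.80 and 0.86), and no difference passed an adjusted p of 0.05.

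Across the 12 tumors, 2 of the 45 member pairs passed the test of a shared variation, Mxd1 with Mnt and Mycl with Mxd1. For all 45 pairs, Pearson's r and Spearman's rho were computed on the log2(RPKM + 1) scale with 100000-resample permutation tests, adjusted over a family of 48 that also held the 3 relations to the target mean described below. Mxd1 and Mnt had an r of 0.82 (permutation p = 0.0012, adjusted p = 0.037) and a rho of 0.66 (adjusted permutation p = 0.27). Both were highest in retro-orbital 3, both were lowest in cheek 2, and without these 2 tumors r was 0.56. Mycl and Mxd1 had an r of 0.77 (permutation p = 0.0031, adjusted p = 0.049) and a rho of 0.79 (permutation p = 0.0033, adjusted p = 0.079), and an r of 0.71 without meninges 1 and retro-orbital 3. Mycl and Mnt had an r of 0.73 (adjusted permutation p = 0.090) and a rho of 0.73 (adjusted permutation p = 0.14). Mycl also had r values of 0.62 with Mxd4 and 0.60 with Mxi1 (adjusted permutation p = 0.30 each), which fell to 0.024 and 0.21 without meninges 1 and retro-orbital 3 and thus rested on those tumors.

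Centring each gene within its location left 0.77 for Mxd1 and Mnt and 0.77 for Mycl and Mxd1. With 1 value per identifier start they were 0.70 and 0.72. Both calls depended on single tumors. With each tumor left out in turn, the adjusted permutation p of Mxd1 and Mnt ran from 0.017 to 0.19 and passed 0.05 only without retro-orbital 1, retro-orbital 4 or meninges 1 (r 0.70 to 0.90). That of Mycl and Mxd1 ran from 0.030 to 0.19 and passed only without retro-orbital 4 or meninges 1 (r 0.70 to 0.84), and Mycl and Mnt passed without meninges 1 alone (r = 0.80). None of the 45 pairs passed an adjusted p of 0.05 by Spearman's rho. No pair of Myc with another member passed, its r running from -0.49 with Mxd3 (adjusted permutation p = 0.46) to 0.36 with Max (0.67). Centring within locations gave -0.61 with Mxd3 and 0.68 with Max. With 1 value per identifier start they were -0.67 and 0.32. These 2 forms were not tested. Between Myc and Mycn r was -0.085 and between Myc and Mycl 0.085 (adjusted permutation p = 0.92 each).

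**Figure D4:**
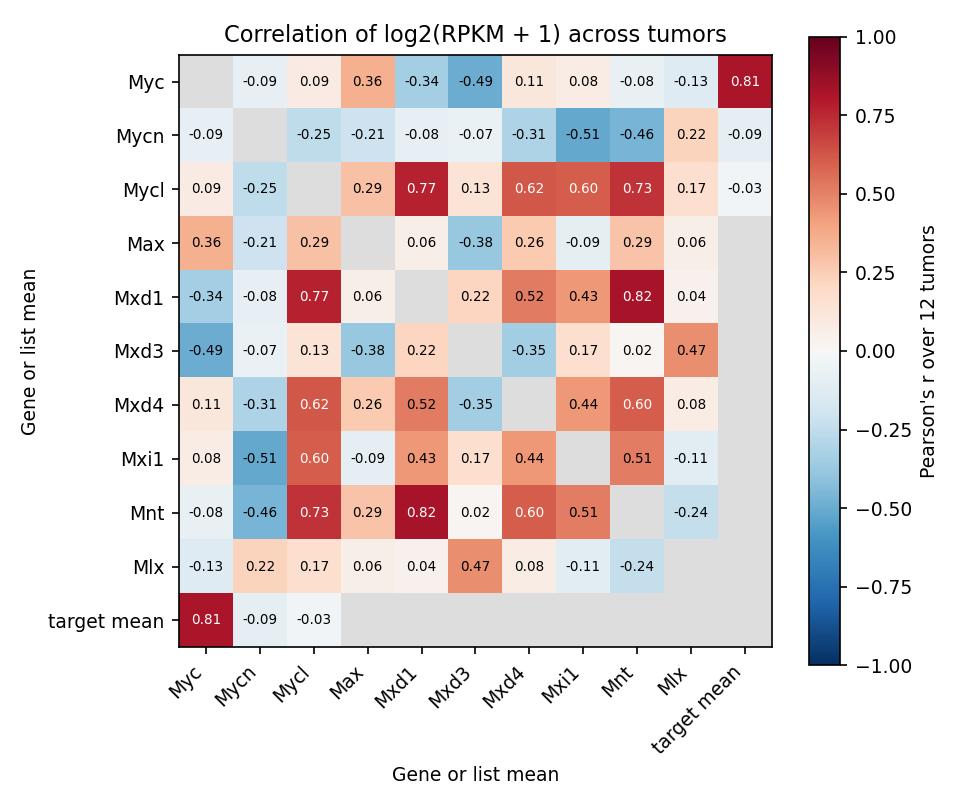
Pearson's r of log2(RPKM + 1) over the 12 tumors for each pair of members and for the 3 paralogs with the mean of 34 Myc-induced targets, as colored squares with the value printed in each. Mycl, Mxd1 and Mnt form the block of high values (0.73 to 0.82), and Myc has its highest value, 0.81, with the target mean.

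Marker lists of other cells differed in their relation to Mycl. Of the glia markers 5 of 5 had a positive r with Mycl (median 0.71), of the epithelial markers 4 of 4 (median 0.62) and of the Schwann cell markers that passed the filter 3 of 3 (median 0.71, in a list that overlaps the glia list), where over all 15042 genes 62.0% were positive with a median of 0.15. Leukocyte markers were positive with Mycl in 1 of 7 (median -0.21), muscle markers in 2 of 6 (median -0.32), endothelial markers in 2 of 4 (median -0.0051) and neuron markers in 2 of 4 (median 0.13). With Mxd1, 5 of 5 glia markers (median 0.60), 3 of 3 Schwann cell markers (0.60) and 4 of 4 epithelial markers (0.43) were positive, against 60.6% of all genes. With Mnt, 5 of 5 glia markers (0.60), 3 of 3 Schwann cell markers (0.60) and 3 of 4 epithelial markers (0.35) were, against 57.1% of all genes. The glia list summed to 355 RPKM in meninges 1, 393 in meninges 3 and 263 in retro-orbital 3, and to between 2.98 and 124 in the other 9 tumors. By location it was between 2.98 and 263 in the retro-orbital, 9.82 and 21.6 in the cheek and 119 and 393 in the meninges tumors. The epithelial list summed to 439 RPKM in meninges 1 and 446 in retro-orbital 3, and its highest sum was 590 in vestibular N 1. By location its range was 2.67 to 446 in the retro-orbital, 59.9 to 358 in the cheek and 6.52 to 439 in the meninges tumors. The Schwann cell list was at 6.64 to 22.2, 1.65 to 6.75 and 29.5 to 60.5 RPKM in these locations. No defining marker of these lists was at 0 in all tumors, and the part of such cells in the levels of Mycl, Mxd1 and Mnt, or in their correlations, was not tested.

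The 3 genes whose pattern over the 12 tumors was most like that of Mycl, among the genes that reached 1 RPKM in 3 or more tumors, were Sytl3 (r = 0.96), Chad (0.95) and Bmp7 (0.94). Sytl3 encodes a Rab-binding protein of vesicle transport, Chad the cartilage matrix protein chondroadherin, and Bmp7 a growth factor of the TGF-beta family. Bmp7 was at 32.7 RPKM in meninges 1 and 9.57 in retro-orbital 3, and at 0.0501 in cheek 2, where Mycl was 0.167. Of the wider network, Mlxip had an r of 0.83 and Mlxipl of 0.74 with Mycl, and Mga of -0.048 and Zbtb17 of 0.030. For Mycn the nearest genes were Mir7026 (0.91), Fabp3 (0.86), a fatty acid-binding protein of muscle, and Abcg3 (0.84). All 3 were highest in retro-orbital 4, the tumor highest in Mycn, at 6.52, 20.35 and 3.39 RPKM. At their lowest, Mir7026 was at 0 and Abcg3 at 0.0156 RPKM. These correlations describe 12 tumors, and since each is the highest of 15042 or more genes they carry no p-value.

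Most genes known to be induced by Myc had a positive correlation with its level. Of 34 such genes (nucleolar and ribosome biogenesis factors, translation factors, metabolic enzymes and cell cycle genes), 31 had a positive r with Myc, with a median of 0.55, whereas 48.0% of the 15042 other genes were positive with a median of -0.019. With Mycn 17 of the 34 were positive (median -0.0035, all genes -0.018) and with Mycl 16 (median -0.012, all genes 0.15). The mean log2(RPKM + 1) of the 34 genes had an r of 0.81 and a rho of 0.80 with Myc over the 12 tumors. Without retro-orbital 1 and meninges 2, the extremes of Myc, r was 0.82, after centring within locations 0.81 and with 1 value per identifier start 0.89. Within the family of 48 relations, the adjusted permutation p was 0.037 for r and 0.079 for rho, and 0.087 for r after quantile scaling. With each tumor left out in turn it ran from 0.026 to 0.13 for r (0.76 to 0.88) and passed 0.05 only without retro-orbital 3, meninges 1 or meninges 2. The list was chosen with earlier results of these data known, so this is no independent evidence. With Mycn and Mycl the mean had an r of -0.089 and -0.029.

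The genes nearest to Myc included members of this list. Ncl (nucleolin, which acts in ribosomal RNA synthesis) was the gene most like Myc of all 15042, with an r of 0.93, followed by the ribosomal protein gene Rps14 (0.92) and Wdr43 (0.90), whose E-box site is printed above. The other targets with the E-box had r values with Myc between 0.14 and 0.86. A relation of the E-box to r was not tested. Ncl was lowest in meninges 2 (50.2 RPKM) and highest in retro-orbital 1 (124 RPKM), the same tumors as Myc. Wdr43 was lowest in meninges 2 (32.0 RPKM) and highest in cheek 1 (73.3 RPKM). Npm1 (nucleophosmin), the target with the highest mean, had 487 ± 196 RPKM and an r of 0.83, Ldha (lactate dehydrogenase) 245 ± 68.7 and 0.56, and Eif4a1 (an RNA helicase of translation initiation) 224 ± 47.1 and 0.47. At the low end, the phosphatase gene Cdc25a had 7.38 ± 2.25 RPKM and an r of 0.23, and the telomerase gene Tert 2.41 ± 1.41 and 0.098. The 3 targets with a negative r were Slc3a2 (-0.29) and Slc7a5 (-0.025), which encode the chains of 1 amino acid transporter, and the mitochondrial folate enzyme Mthfd2 (-0.0073). These 3 were named after their values were seen.

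**Figure D5:**
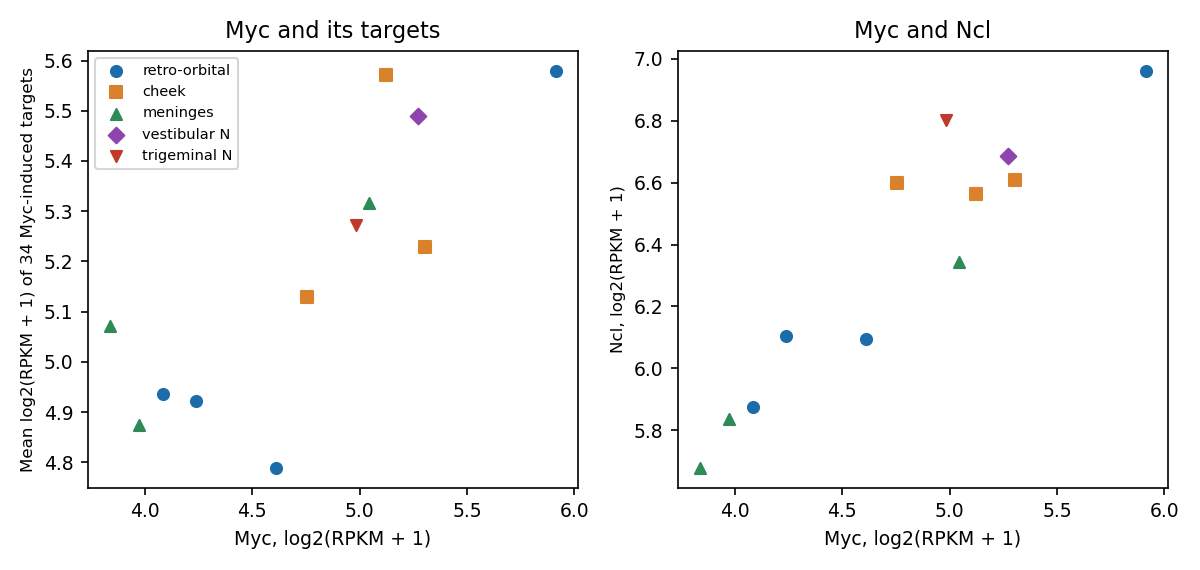
Left, mean log2(RPKM + 1) of 34 Myc-induced targets against that of Myc in the 12 tumors. Right, the same for Ncl, with 1 point per tumor colored by location. Ncl rises with Myc (r = 0.93) from meninges 2 to retro-orbital 1, and retro-orbital 3 lies lowest in the target mean (4.79).

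The proliferation, cofactor and repressed gene lists had lower medians, and no difference between lists was tested. Of 5 proliferation genes 3 had a positive r with Myc (median 0.025), and Mki67 (Ki-67, 47.0 ± 14.8 RPKM) had -0.058. Pcna (72.8 ± 19.4 RPKM, the sliding clamp of replication), Top2a (71.6 ± 37.5), Mcm2 (26.8 ± 9.94) and Ccnb1 (14.5 ± 4.0) had values of 0.025, -0.20, 0.21 and 0.17. All 5 were lowest in retro-orbital 3, the tumor highest in Mxd1, Mxd4 and Mnt. That tumor had the most fragments. It was also lowest in genes of other lists, such as Npm1, Hdac1, Hdac2 and Mga, and highest in Aqp4, Krt8 and Pecam1. A link of the repressors to the proliferation genes was not tested. Of 16 cofactors and degradation factors 9 were positive (median 0.14). Their highest members were Hdac1 (47.6 ± 11.8 RPKM), Hdac2 (45.8 ± 15.8) and Ncor1 (37.2 ± 8.99), of the corepressor complexes, and the lowest was the deubiquitinase Usp28 (4.68 ± 1.17). Of 6 genes that Myc is known to repress, 4 were positive (median 0.20), as with Ndrg2 (84.9 ± 45.3 RPKM, r = 0.52) and the cyclin-dependent kinase inhibitors Cdkn1b (51.2 ± 9.82, 0.18), Cdkn1a (43.8 ± 19.5, 0.39) and Cdkn2b (8.55 ± 3.68, 0.23), whereas Gadd45a (6.74 ± 5.90) had -0.084 and Ndrg1 (16.3 ± 9.82, added after its value was seen) -0.48.

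Of the 7 leukocyte markers that passed the filter, 0 had a positive r with Myc, against 48.0% of all genes, and the median was -0.59. The values ran from -0.68 for Csf1r, the macrophage growth factor receptor, to -0.12 for S100a9 and -0.029 for S100a8, both of neutrophils. Ptprc (CD45, carried by all leukocytes) was at 6.93 RPKM in vestibular N 1 and 51.5 in retro-orbital 4, with Myc at 37.6 and 15.9. Their part in the relation of Myc to its targets was not tested. Muscle markers were positive with Myc in 6 of 6 (median 0.19) and with Mycn in 6 of 6 (median 0.51), and epithelial markers with Myc in 4 of 4 (median 0.25). Neuron markers were positive with Myc in 0 of 4 (median -0.16) and glia markers in 1 of 5 (median -0.28). Endothelial markers were positive in 1 of 4 (median -0.21) and Schwann cell markers in 1 of 3 (median -0.19).

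Between locations, the target list gave no called gene (0 of 34 by the adjusted F test), and 7 of 34 had an unadjusted p under 0.05, against 14.3% of all genes. Its median difference was 0.39 for cheek minus retro-orbital, 0.031 for meninges minus retro-orbital and -0.38 for meninges minus cheek, where the medians of all genes were -0.015, 0.13 and 0.16. Myc itself differed by 0.35, -0.43 and -0.78 in these comparisons (SE 0.45, 0.45 and 0.48), none of them past the limma test. With 1 tumor left out, cheek minus retro-orbital ran from 0.14 (without retro-orbital 4) to 0.75 (without retro-orbital 1), meninges minus retro-orbital from -0.80 (without meninges 1) to -0.026 (without retro-orbital 1) and meninges minus cheek from -1.16 (without meninges 1) to -0.55 (without meninges 2). With the identifier block they were -0.11, -0.29 and -0.19.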

How the data were processed

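The authors sequenced 12 tumors as a single pool after RiboZero treatment with a stranded TruSeq kit, aligned the reads to mm10 with STAR, used HTSeq to count uniquely mapped fragments of RefSeq genes, and deposited them as 1 RPKM value for each gene of a tumor. Demultiplexing used bcl2fastq 2.17 per the submitters' processing notes. Which gene lengths were used is not given in the sources used here.

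RPKM values are not counts, so log2(RPKM + 1) was fitted in limma 3.58.1 (R 4.3.3, trended robust prior) for genes reaching 1 RPKM in 3 or more of 10 tumors, with Benjamini-Hochberg adjustment. This scale understates changes of low genes. Paralog differences used log2(RPKM + 0.1). Permutation tests and correlations used scipy 1.17.1, numpy 2.4.6 and pandas 2.3.3 (Python 3.11.15), and figures matplotlib 3.10.9. Fragment totals were derived from the RPKM values. Member fragments were derived from RPKM, these totals and a gene length recovered from the values. For no member did the recovered length equal that of a GENCODE transcript. The member fragments and their Poisson intervals rest on these derived totals and lengths. Gene positions are from GENCODE M21 on GRCm38, and promoter windows from RefSeq on GRCm38.p6.

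Members, gene lists and marker lists were chosen with earlier results of these data known. Named were all members, of each pathway list the 3 genes with the highest and 2 with the lowest mean and any called gene, and the 3 genes most like each paralog, apart from values that are not reported here. The pseudocount, filter, scaling, prior and block were varied, and tumors left out in turn. The limma script was tested on simulated data.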

Additional observations from a re-analysis of the deposited data

Results flagged for a closer look

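In a group of 4 tumors, a value was looked at again where its gap to the nearest other tumor exceeded Dixon's 95% critical share of the group's range. Of 15 quantities screened in the retro-orbital tumors, 3 exceeded it. For normally spread values chance gives about 1 in 20, or 0.75. The gaps were taken on RPKM and not on a log2 scale, where a high value stands out less. The count of 3 can therefore not be read as an excess over 0.75. All 3 flagged values concern a highest tumor. For Mycn the gap of retro-orbital 4 (2.45 RPKM, the others 0.144 to 0.412) was 0.884 of the range. For Mlx the gap of the same tumor (19.99 RPKM, the others 13.5 to 14.4) was 0.864. For Mycl the gap of retro-orbital 3 (6.09 RPKM, the others 0.0973 to 1.06) was 0.839. The leukocyte list summed to 362 RPKM in retro-orbital 4 and 406 in retro-orbital 3, against 161 and 555 in the other retro-orbital tumors. The part of other cells in these values was not tested.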

How the results depend on the processing

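No paired analysis was possible because replicate numbers were given in accession order. The leave-one-out, within-location and one-per-identifier forms of the correlations were chosen after seeing the data. Myc stayed above Mycn (5.5 to 5.93) and Mycl (4.22 to 4.69) with each tumor left out, and by 4.18 and 3.46 with a pseudocount of 1. Mycl minus Mycn was 0.88 to 1.52 (exact permutation p 0.041 to 0.18), and the spread of the ratio between locations 0.163 to 1.13 (1.13 without retro-orbital 4). The F test called 10 genes without the filter, 19 with a constant prior, 2802 with the block and 0 to 198 with 1 tumor left out (198 without cheek 1, 56 without retro-orbital 3, 14 without retro-orbital 1, 3 without meninges 3, and 0 without cheek 2, cheek 3 or meninges 1). Cheek minus retro-orbital gave 2 without the filter, 2 with the block and 0 to 147 (147 without cheek 1). Meninges minus retro-orbital gave 7, 6 with a constant prior and 0 to 41 (41 without retro-orbital 3). Meninges minus cheek gave 2 with a pseudocount of 0.1, 18 without the filter, 13 after quantile scaling, 22 with a constant prior, 4243 with the block and 0 to 527 (527 without cheek 1, 65 without retro-orbital 3). The cause was not tested. Of the 48 relations, 3 passed (the third being Myc with the target mean), 0 after quantile scaling, 0 without the 2 farthest tumors and 0 to 4 with 1 left out. There r ran from 0.76 to 0.88 for Myc with the target mean, 0.70 to 0.90 for Mxd1 with Mnt and 0.70 to 0.84 for Mycl with Mxd1. Signs turned where r was near 0: Myc and Mycn 0.0032 (pseudocount 0.1), 0.035 (quantile scaling) and -0.20 to 0.34 with 1 tumor left out (0.34 without retro-orbital 4), Myc and Mycl -0.049 to 0.27, Mycn and the target mean -0.21 to 0.245 (0.245 without retro-orbital 4), and Mycl and the target mean 0.039 (pseudocount 0.1) and -0.17 to 0.22. Low fragment numbers limit Mycn.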
